A study of Mus musculus with 6 samples.

Results

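Blood neutrophils from wild-type BALB/C mice, taken 4 weeks after orthotopic implantation of 4T1 mammary carcinoma cells, were examined for 10 genes of the integrin family, out of 35905 genes in the tables. They were chosen by family with the Ly6C-high over Ly6C-low differences of these same libraries already known, so those differences are given as a description and support nothing further. The 10 were Itgam, Itgax, Itgal and Itgad, which encode the α chains CD11b, CD11c, CD11a and CD11d, the α chain genes Itga4 and Itgav, and the β chain genes Itgb2 (CD18), Itgb2l, Itgb1 and Itgb7. Ly6G, found on the surface of mouse neutrophils, had been used to gate cells of red-cell-lysed blood, and these were then separated by Ly6C, a small lipid-anchored protein. Poly(A) RNA of 3 Ly6C-high and 3 Ly6C-low samples was sequenced. All 6 samples share the tumour, the strain and the Ly6G gate, and only tumour-bearing mice were analysed here. Separate mice are not named for the 3 libraries of a group, so errors and p-values given here measure the spread between libraries, which may be technical.

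Integrins are pairs of an α and a β chain that hold leukocytes to other cells and to matrix. The β2 integrins pair CD18 with CD11a (LFA-1), CD11b (Mac-1, also complement receptor 3), CD11c (complement receptor 4) or CD11d. LFA-1 and Mac-1 bind ICAM proteins on endothelium during neutrophil arrest and crawling, and Mac-1 and CD11c/CD18 also bind the complement fragment iC3b. The α4 chain pairs with β1 or β7 and binds VCAM-1, or MAdCAM-1 with β7, and the αv chain serves receptors for RGD-bearing proteins such as vitronectin. Itgb2l encodes pactolus, a β2-like protein of mouse neutrophils that is not known to pair with an α chain. Integrins are switched on from inside the cell by Rap1, talin and kindlin and signal back through Src-family kinases and Syk.

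The libraries held between 17192372 and 20973623 estimated counts, and 11413 genes passed the filter on low counts, 9 of the 10 integrin genes among them. Ly6c2, a gene of the sorting antigen, measured 124.76, 165.25 and 126.55 CPM (counts scaled to a common library size) in Ly6C-high cells, against 14.6, 24.4 and 16.9 CPM in Ly6C-low cells, so the transcripts followed the labels. Ly6g, the gene of the gating antigen, was not level between the groups. It measured 757, 875 and 708 CPM in Ly6C-high cells, against 610, 652 and 396 CPM in Ly6C-low cells, without overlap. Ly6C-low replicate 3 stood apart: its score on the leading principal component, which held 32.79% of the variance, was 38.03, and the other 5 libraries scored between -19.66 and 3.89. Neutrophil markers were all present (9 of 9, led by S100a9) and summed to 114570 to 119820 CPM in Ly6C-high cells, against 95791 to 106830 CPM in Ly6C-low cells. S100a8 and S100a9 made up most of these sums. The groups did not overlap in S100a8, S100a9, Ly6g, Mmp8 and Retnlg, but did in Cxcr2, Camp, Ltf and Csf3r. Of all genes tested, 21.1% did not overlap. Csf3r measured 5171, 5224 and 5471 CPM in Ly6C-high cells, against 6734, 5772 and 5249 CPM in Ly6C-low cells. The RNA is that of whole sorted samples, in which fewer cells of a type and less RNA per cell cannot be told apart.

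Short sequences show what the reads had to tell apart. Itgam and Itgal, both on chromosome 7, each have a pair of abundant annotated transcripts that differ inside the coding sequence by 3 bases, which is 1 codon. Itgb2l, on chromosome 16, has a transcript that lacks 43 bases of coding sequence and is annotated as a target of nonsense-mediated decay. The lines below give the transcript sequence 5′ to 3′ with the additional bases in capitals and 30 bases on either side. They are shown because the transcript shares given further on rest on them. The sequences come from the GENCODE M21 transcripts, and the same 3 bases can be placed slightly further along without changing either sequence.
Itgam-201, exon 13 of 30: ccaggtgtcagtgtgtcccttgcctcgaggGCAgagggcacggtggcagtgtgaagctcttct
Itgam-203: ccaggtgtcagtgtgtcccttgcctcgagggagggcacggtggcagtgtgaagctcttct
Itgal-201, exon 18 of 31: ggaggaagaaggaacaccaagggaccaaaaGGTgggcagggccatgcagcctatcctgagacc
Itgal-202: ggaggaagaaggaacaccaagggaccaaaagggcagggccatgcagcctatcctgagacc
Itgb2l-201, exon 13 of 16: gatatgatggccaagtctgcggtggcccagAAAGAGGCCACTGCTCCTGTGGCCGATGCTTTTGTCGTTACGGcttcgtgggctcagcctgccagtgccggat
Itgb2l-203: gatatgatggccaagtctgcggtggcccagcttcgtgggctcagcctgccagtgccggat

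Itgam and Itgax are neighbours on chromosome 7, 11034 bases apart, and Itgad follows Itgax after 23275 bases. Their upstream sequences are shown because CD11b and CD11c transcripts lay on opposite sides in the comparison of the groups. Each line gives the 250 bases before the annotated start on build GRCm38.p6, plus strand, from RefSeq. The capitals mark GAGGAA or its reverse complement TTCCTC, a core recognised by PU.1, the ETS-family factor of myeloid cells that is known from human cells to act on the CD11b promoter.
Itgam, chr7:128062390-128062639: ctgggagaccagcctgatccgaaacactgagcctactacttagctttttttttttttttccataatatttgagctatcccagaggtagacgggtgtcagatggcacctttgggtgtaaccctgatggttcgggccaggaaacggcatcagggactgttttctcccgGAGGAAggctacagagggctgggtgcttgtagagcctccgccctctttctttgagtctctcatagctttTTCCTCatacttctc
Itgax, chr7:128129300-128129549: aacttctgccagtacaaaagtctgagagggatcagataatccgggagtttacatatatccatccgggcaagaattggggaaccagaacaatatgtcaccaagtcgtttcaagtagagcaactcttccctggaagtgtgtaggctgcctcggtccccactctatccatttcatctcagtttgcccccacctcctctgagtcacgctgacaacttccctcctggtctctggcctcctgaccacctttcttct

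The Itgam window held the PU.1 core 2 times, starting 84 and 15 bases before the start, and the Itgax window held 0. Of 32851 promoter windows of this length 23.3% held the core on either strand. The Itgam window also held 1 Sp1 box (CCGCCC or GGGCGG, in 32.7% of windows) and neither held the C/EBP motif TTGCNNAA or TTNNGCAA (9.56% of windows). Promoter windows were at hand for 7 of the 10 genes, and the PU.1 core occurred in those of Itgam, Itgav, Itgb1 and Itgb2l, with 2, 2, 1 and 2 matches. A match is a string of letters, not a bound site, and the RefSeq span of Itgax already begins at base 128129526, inside its window. The Itgb2l window also lies partly inside its RefSeq span, and the Itgav and Itgb7 windows lie wholly inside theirs. The Itgav window begins at base 83724147 and the Itgav span at base 83722303, so its 2 matches are not upstream of that span.

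The β2 family made up most of the transcripts of these 10 genes. Levels of different genes are compared here in TPM, which is scaled for transcript length and library size. Together the 10 genes summed to 1590, 1698 and 1544 TPM in Ly6C-high cells, against 1643, 1558 and 1322 TPM in Ly6C-low cells. Of these sums, Itgb2 and its 4 α partners held 94.1%, 95.2% and 93.9% in Ly6C-high cells, against 93.7%, 92.7% and 91.7% in Ly6C-low cells. The order of the mean TPM over all 6 libraries was Itgb2 (689), Itgam (511), Itgal (251), Itga4 (60.6), Itgb1 (22.1), Itgax (8.39), Itgb2l (8.29), Itgav (7.39), Itgb7 (1.33) and Itgad (0.411). Itgb2 was above Itgam in each of the 6 libraries, although their ranges overlapped, and the ranges of Itgam, Itgal, Itga4, Itgb1 and Itgax followed each other without overlap. Itgax, Itgb2l and Itgav could not be ordered: Itgax exceeded Itgb2l in 3 of 6 libraries, and Itgb2l exceeded Itgav in 3 of 6.

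**Figure D1:**
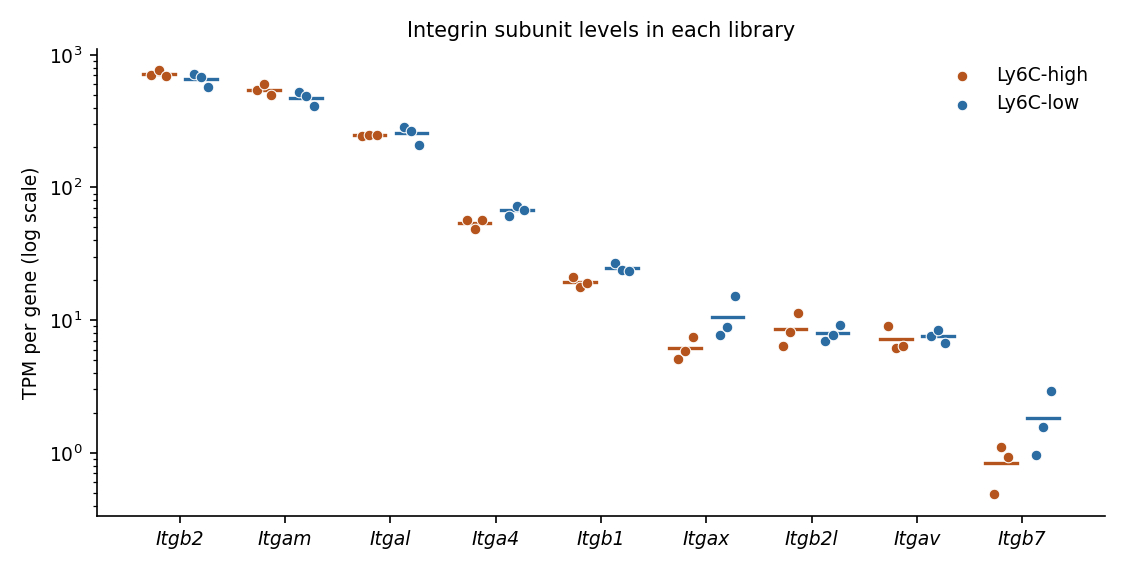
TPM (log scale) of 9 integrin genes in 3 Ly6C-high (left, brown) and 3 Ly6C-low libraries (right, blue), with the group means as bars. Itgb2, Itgam and Itgal lie above 200 TPM in every library and Itgax, Itgb2l and Itgav below 16 TPM. Itgad, with values of 0, is not drawn.

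Within the β2 family the α chain transcripts were mostly CD11b. Itgam held 68.4%, 70.1% and 66.0% of the summed α chain TPM in the Ly6C-high libraries and 64.2%, 63.7% and 64.5% in the Ly6C-low libraries. Itgal held 30.9%, 29.2% and 32.9% in Ly6C-high cells, against 34.9%, 35.1% and 32.999% in Ly6C-low cells. Neither share overlapped between the groups, though for Itgal the nearest values differed by less than 1 percentage point. CD11c held 0.645%, 0.685% and 0.990% of the α chain TPM in Ly6C-high cells, against 0.941%, 1.16% and 2.39% in Ly6C-low cells, and these ranges overlapped. The α chain transcripts and the CD18 transcripts stood close to 1 to 1 throughout: the α sum divided by Itgb2 was 1.113, 1.122 and 1.1004 in Ly6C-high cells, against 1.14, 1.125 and 1.109 in Ly6C-low cells. This is a ratio of transcripts per length and not of surface protein.

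Of the 9 integrin genes tested, edgeR's quasi-likelihood test called 0 at an adjusted p of 0.05, where it called 4 of 11413 genes (0.035%). At an unadjusted p under 0.05 there were 3 of 9 (Itgax, Itgam and Itgb1), where 14.3% of all genes had one, and DESeq2 called 1 of 9 (Itgax), where it called 0.964% of all genes. The groups did not overlap in CPM in 3 of 9 genes (Itgam, Itgb2 and Itgax), as in 21.1% of all genes. Because the genes were chosen with this comparison known, these counts are given beside the background and nothing is read from them. The median log2 fold change of the 9 genes was -0.13, with 4 above 0 and 5 below 0, and turned to 0.03 with length-scaled TPM. Without Ly6C-low replicate 3 it was -0.21, and without Ly6C-low replicate 2 it was -0.0056. That of all genes tested was -0.0044.

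**Figure D2:**
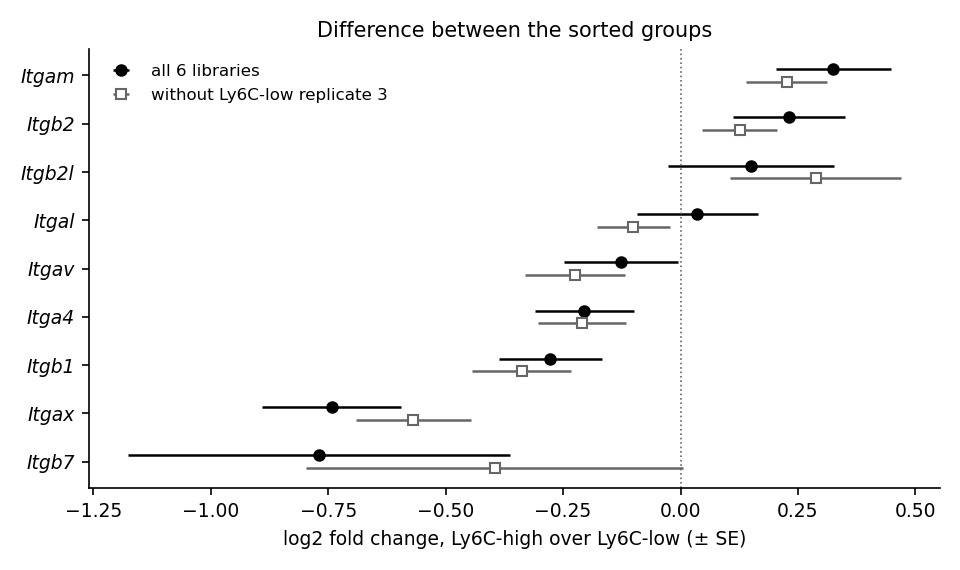
Fitted log2 fold change, Ly6C-high over Ly6C-low, of the 9 integrin genes that passed the filter on low counts, with its standard error, for all 6 libraries (filled) and without Ly6C-low replicate 3 (open). Itgam, at 0.33, and Itgax, at -0.74, lie on opposite sides of 0 with both settings, and Itgal changes sign.

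CD11b was higher in the Ly6C-high cells. Itgam measured 2321.5, 2460.8 and 2071.1 CPM in Ly6C-high cells, against 2026.5, 1884.5 and 1559.8 CPM in Ly6C-low cells. All 3 Ly6C-high libraries were above all 3 Ly6C-low ones, the closest pair being Ly6C-high replicate 3 and Ly6C-low replicate 1. The log2 fold change came to 0.33 (standard error 0.12). In TPM the groups overlapped, at 539, 599 and 501 in Ly6C-high cells, against 527, 487 and 411 in Ly6C-low cells. The predicted gene Gm49368 lies on the same strand and shares 3450 of the 5024 exonic bases of Itgam, so the division of reads between them is uncertain. It took 3.84 ± 0.436% of their joint CPM in Ly6C-high cells, against 3.96 ± 0.321% in Ly6C-low cells (SD, n = 3 each), and the joint CPM of the pair did not overlap either, at 2409, 2551 and 2165 in Ly6C-high cells, against 2118, 1958 and 1621 in Ly6C-low cells.

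CD11c, far scarcer per length, went the other way. Itgax measured 14.9, 15.7 and 18.2 CPM in Ly6C-high cells, against 25.5, 22.8 and 33.4 CPM in Ly6C-low cells, which came from 282, 294 and 372 against 511, 436 and 630 counts. All 3 Ly6C-low libraries were above all 3 Ly6C-high ones, and Ly6C-low replicate 3 was the highest. The log2 fold change came to -0.74 (standard error 0.15), and -0.57 (standard error 0.12) without Ly6C-low replicate 3. In TPM the values were 5.08, 5.86 and 7.52 in Ly6C-high cells, against 7.73, 8.90 and 15.3 in Ly6C-low cells. Of the 15.3 TPM in Ly6C-low replicate 3, 4.43 TPM belonged to Itgax-202, a 352-base transcript with a retained intron. Itgax-202 held only 1.67% of the 630 Itgax counts of that library, and 23 counts over all 6 libraries. The main coding transcript, Itgax-201, alone measured 3.81, 4.12 and 4.71 TPM in Ly6C-high cells, against 7.15, 6.41 and 9.50 TPM in Ly6C-low cells. Itgax and Itgad share 512 words of 31 bases, out of 4790 in Itgax and 4536 in Itgad, so reads of the shared stretch cannot be assigned with certainty.

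The ratio of CD11b to CD11c, taken within each library, was 106, 102 and 66.7 in Ly6C-high cells, against 68.2, 54.7 and 26.9 in Ly6C-low cells when summed TPM were used. The groups touched, since Ly6C-high replicate 3 lay just under Ly6C-low replicate 1. With gene counts divided by the effective length of the main transcript the ratio was 134, 136 and 98.2 in Ly6C-high cells, against 68.6, 71.2 and 40.3 in Ly6C-low cells, and the groups did not overlap. The mean log2 ratio of TPM was 6.49 ± 0.372 in Ly6C-high cells, against 5.54 ± 0.70013 in Ly6C-low cells (SD, n = 3 each), a difference of 0.95. Without Ly6C-low replicate 3 that difference was 0.56.

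**Figure D3:**
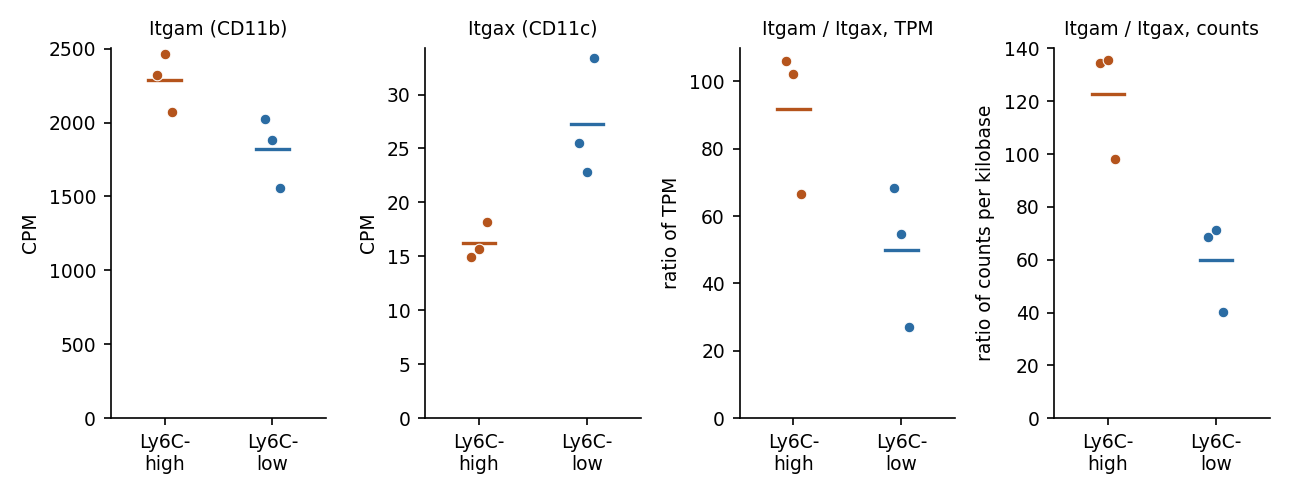
From left to right, CPM of Itgam, CPM of Itgax, the ratio of their TPM and the ratio of their counts per kilobase of effective length, one point per library and the group mean as a bar, Ly6C-high left of Ly6C-low. Itgam is higher and Itgax lower in the Ly6C-high libraries without overlap, and the ratio of TPM overlaps at 66.7 and 68.2.

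Markers of other cells that carry CD11c were also measured. Of 8 dendritic cell markers 7 had a count in some library and Clec10a had 0 in each. Their CPM summed to between 2.17 and 4.26 in Ly6C-high cells, against between 1.45 and 2.93 in Ly6C-low cells. All 9 monocyte and macrophage markers had counts, and their sum lay between 386 and 402 CPM in Ly6C-high cells, against between 442 and 472 CPM in Ly6C-low cells, without overlap. That sum was mostly Csf1r, the receptor for macrophage colony-stimulating factor, at a mean of 365 CPM. Ccr2, the chemokine receptor of classical monocytes, measured 11.6, 11.7 and 10.3 CPM in Ly6C-high cells, against 8.68, 7.75 and 4.45 CPM in Ly6C-low cells. The part of these cells in the CD11c difference was not tested.

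Itgad was at the limit of detection. It had 0, 0 and 5 estimated counts in Ly6C-high cells, against 1, 4 and 4 in Ly6C-low cells, where a count of 0 allows up to 3 counts, which is 0.159 CPM in Ly6C-high replicate 1 and 0.160 CPM in Ly6C-high replicate 2. It did not pass the filter, and no fold is given. This limit covers counting error only.

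CD18, the common partner, was close to CD11b in direction and smaller in size. Itgb2 measured 1880.1, 1988.8 and 1789.8 CPM in Ly6C-high cells, against 1789.2, 1670.4 and 1360.8 CPM in Ly6C-low cells. The groups did not overlap, by a margin of less than 1 CPM between Ly6C-high replicate 3 and Ly6C-low replicate 1. The log2 fold change came to 0.23 (standard error 0.12), and 0.13 (standard error 0.08) without Ly6C-low replicate 3. In TPM the groups overlapped, between 690 and 762 in Ly6C-high cells, against between 575 and 718 in Ly6C-low cells.

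CD11a did not separate the groups. Itgal measured 1137, 1146 and 1137 CPM in Ly6C-high cells, against 1283, 1163 and 890 CPM in Ly6C-low cells. The 3 Ly6C-high values nearly coincided and lay inside the wide range of the Ly6C-low ones. The log2 fold change came to 0.04 (standard error 0.13), and -0.10 (standard error 0.08) without Ly6C-low replicate 3. It was -0.06 with scaling by library size alone. The ratio of Itgam to Itgal TPM was 2.21, 2.40 and 2.01 in Ly6C-high cells, against 1.84, 1.81 and 1.95 in Ly6C-low cells, without overlap.

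Pactolus transcripts were scarce and did not separate the groups. Itgb2l measured 14.1, 17.9 and 22.7 CPM in Ly6C-high cells, against 15.2, 14.7 and 19.4 CPM in Ly6C-low cells. The highest value was that of Ly6C-high replicate 3 and the lowest that of Ly6C-high replicate 1, so a single group spanned the whole range. The log2 fold change came to 0.15 (standard error 0.18), and leaving out replicate 3 of the Ly6C-high group gave -0.04, and leaving out that of the Ly6C-low group gave 0.29. Itgb2 and Itgb2l share 0 words of 31 bases. Per length, Itgb2 exceeded Itgb2l by a factor between 60.6 and 112 in Ly6C-high cells, against between 62.4 and 104 in Ly6C-low cells.

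The α4 chain and its partner β1 had lower means in the Ly6C-high cells, with groups that overlapped in CPM. Itga4 measured 521, 440 and 498 CPM in Ly6C-high cells, against 516, 610 and 555 CPM in Ly6C-low cells, with an overlap of 1 library, Ly6C-high replicate 1. Its log2 fold change was -0.20 (standard error 0.10). In TPM the groups did not overlap, at 57.3, 48.6 and 56.7 in Ly6C-high cells, against 61.0, 72.6 and 67.5 in Ly6C-low cells. Itgb1 measured 74.3, 59.7 and 63.6 CPM in Ly6C-high cells, against 88.6, 78.0 and 72.7 CPM in Ly6C-low cells. Here Ly6C-high replicate 1 lay above Ly6C-low replicate 3, and the log2 fold change was -0.28 (standard error 0.11). In TPM the Itgb1 groups did not overlap either, at 21.2, 17.8 and 19.1 in Ly6C-high cells, against 27.1, 24.0 and 23.3 in Ly6C-low cells. The ratio of Itga4 to Itgb1 TPM overlapped between the groups, at 2.71, 2.73 and 2.97 in Ly6C-high cells, against 2.25, 3.03 and 2.90 in Ly6C-low cells. Itgb2 exceeded Itgb1 by a factor of 33.4, 42.9 and 36.1 in Ly6C-high cells, against 26.5, 28.4 and 24.7 in Ly6C-low cells, without overlap. The gene Cerkl on the opposite strand shares 1124 of the 13978 exonic bases of Itga4, and it had less than 0.7 CPM in each library.

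The β7 chain had few reads. Itgb7 had 21, 37 and 22 counts in Ly6C-high cells, against 23, 48 and 65 counts in Ly6C-low cells, or 1.11, 1.97 and 1.08 CPM against 1.15, 2.51 and 3.45 CPM. The groups overlapped, and Ly6C-low replicate 3 was the highest. The log2 fold change came to -0.77 (standard error 0.41), and -0.40 (standard error 0.40) without Ly6C-low replicate 3. Per length, Itgb1 exceeded Itgb7 by a factor between 16.1 and 43.6 in Ly6C-high cells, against between 7.95 and 27.99 in Ly6C-low cells.

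The α4 and β7 chains are also carried by eosinophils, basophils and mast cell precursors, and the summed markers of those cells were lower in the Ly6C-high libraries too. Of 9 eosinophil markers 8 had a count and Prg3 had 0 in each library. They summed to between 36.2 and 49.0 CPM in Ly6C-high cells, against between 59.6 and 65.7 CPM in Ly6C-low cells, led by Siglecf. Epx, the eosinophil peroxidase, had 0 in all 3 Ly6C-high libraries and in 2 of the 3 Ly6C-low ones. All 8 basophil and mast cell markers had counts, and their sum lay between 76.8 and 138 CPM in Ly6C-high cells, against between 148 and 236 CPM in Ly6C-low cells. Without Kit, which made up most of it, the sum was 4.50, 4.80 and 6.90 CPM in Ly6C-high cells, against 6.74, 15.1 and 33.7 CPM in Ly6C-low cells, and the groups overlapped. Mcpt8, a basophil protease, measured 0.529, 0.800 and 0.685 CPM in Ly6C-high cells, against 2.10, 3.82 and 8.43 CPM in Ly6C-low cells. The groups did not overlap in Prss34 and Cpa3 either, but did in Fcer1a, Ms4a2, Gata2, Cd200r3 and Kit. Cpa3 measured 0.476, 0.640 and 0.636 CPM in Ly6C-high cells, against 0.699, 1.68 and 3.50 CPM in Ly6C-low cells. Its nearest values lay less than 3 counts apart, which is 0.15 CPM in Ly6C-low replicate 1. Among the eosinophil markers the groups overlapped in Il5ra, Ear2 and Epx, and Prg3 could not separate them. Prg2 had 0 in each Ly6C-high library, against 0.150, 0.733 and 0.106 CPM in Ly6C-low cells. Of all genes tested, 21.1% did not overlap between the groups. The part of these cells in the Itga4, Itgb1 and Itgb7 values was not tested.

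The αv chain did not separate the groups. Itgav measured 43.6, 37.0 and 37.3 CPM in Ly6C-high cells, against 42.1, 49.8 and 36.8 CPM in Ly6C-low cells. The lowest and the highest value were both Ly6C-low. Its log2 fold change was -0.13 (standard error 0.12), and -0.22 (standard error 0.11) without Ly6C-low replicate 3. Without Ly6C-low replicate 2 it was -0.0056, and with length-scaled TPM 0.03.

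The shares of the main transcripts of Itgam and Itgal overlapped between the groups. The codon-lacking Itgam-203 held 60.6 ± 3.28% of the Itgam counts in Ly6C-high cells, against 59.7 ± 3.52% in Ly6C-low cells, and the codon-bearing Itgam-201 held 35.2 ± 1.29% in Ly6C-high cells, against 33.2 ± 1.19% in Ly6C-low cells (SD, n = 3 each). Itgal-201 held 43.9 ± 0.116% in Ly6C-high cells, against 45.2 ± 2.97% in Ly6C-low cells, and Itgal-202, without its codon, held 43.1 ± 1.31% in Ly6C-high cells, against 42.8 ± 6.27% in Ly6C-low cells (SD, n = 3 each). Besides the codon, Itgam-201 has 29 more bases than Itgam-203 at the 5′ end, and Itgal-202 has 31 more than Itgal-201. How many reads crossed these places was not counted. For Itgb2l the transcript without the 43 bases held 35.5%, 48.6% and 28.4% in Ly6C-high cells, against 46.8%, 41.1% and 48.0% in Ly6C-low cells. This was more than the coding Itgb2l-201 alone in 4 of the 6. A second coding transcript, Itgb2l-202, held between 17.2% in Ly6C-low replicate 1 and 29.8% in Ly6C-high replicate 3. Itgb2l-201 alone is therefore not the whole coding share of Itgb2l. By contrast 1 coding transcript held at least 98.2% of Itgb2 and at least 98.68% of Itga4 in each library.

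**Figure D4:**
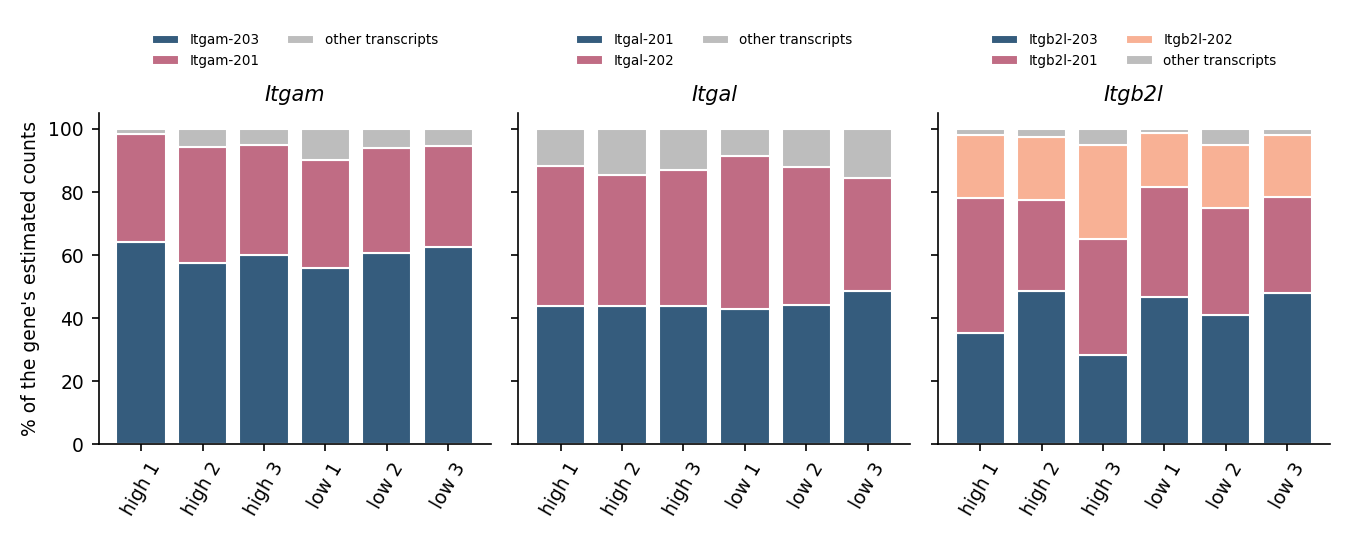
Percent of each gene's estimated counts given to its main transcripts, for Itgam, Itgal and Itgb2l, one bar per library, Ly6C-high left of Ly6C-low. Itgam-203 takes between 55.8% and 64.1% in every library, while the shares of Itgb2l-203, the transcript without 43 coding bases, vary between 28.4% and 48.6%.

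The genes whose profile over the 6 libraries came closest to CD11b were Anxa11 (annexin A11), Flot2 (flotillin-2, a membrane raft protein), Rnf10 (a ubiquitin ligase), Ubash3a and F5 (coagulation factor V). Their root mean square difference from Itgam in centred log2 CPM was between 0.0165 and 0.0309, among 6953 genes compared. For Itgax the closest were Kdm2b (a histone demethylase), Amd2, Mdc1 (a DNA damage protein), Akap8 and Nfx1, with differences between 0.101 and 0.115. These genes had log2 fold changes between 0.31 and 0.34 for Itgam and between -0.64 and -0.55 for Itgax. They were picked by their profile over these same libraries, so such likeness follows from the choice. Anxa11 measured 1024.5, 1071.8 and 922.82 CPM in Ly6C-high cells, against 914.65, 826.34 and 687.61 CPM in Ly6C-low cells, which like Itgam is high in Ly6C-high replicate 2 and low in Ly6C-low replicate 3.

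Other integrin subunits were few. Of 17 further subunit genes 7 passed the filter, and 0 were called by edgeR or DESeq2, with 0 at an unadjusted p under 0.05. Itga5, the fibronectin receptor chain, was the most abundant, at 44.7 ± 9.36 CPM in Ly6C-high cells, against 44.9 ± 9.72 CPM in Ly6C-low cells (SD, n = 3 each). Itgb3, a partner of αv and of the platelet chain αIIb, measured 21.3 ± 2.61 CPM in Ly6C-high cells, against 16.8 ± 3.88 CPM in Ly6C-low cells (log2 fold change 0.34, standard error 0.16, edgeR adjusted p 0.380). Itga2b, which is also a platelet marker, had 4.55, 5.07 and 2.69 CPM in Ly6C-high cells, against 4.09, 6.23 and 3.77 CPM in Ly6C-low cells. Itga6, Itgb5 and Itga7 had means of 3.25, 3.04 and 1.28 CPM over all libraries, with log2 fold changes of -0.08, -0.13 and 0.79 and standard errors of 0.31, 0.30 and 0.38. Without Ly6C-low replicate 3 the log2 fold changes of Itga6, Itgb5 and Itgb3 were -0.32, -0.37 and 0.19, and that of Itga5 was -0.15, against -0.0037 with all 6 libraries. The list's median was -0.08, and it was -0.32 without Ly6C-low replicate 3, -0.31 when Ly6C-high replicate 2 was left out, and 0.15 without Ly6C-low replicate 2. The remaining 11 genes were under 1 CPM, and Itga3 and Itgb8 had 0 counts in each library. Platelet markers (6 of 6 with counts) summed to between 6.61 and 15.8 CPM in Ly6C-high cells, against between 7.21 and 16.4 CPM in Ly6C-low cells.

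Over all genes tested, 6.92% were higher and 7.33% lower at an unadjusted p under 0.05 by edgeR, and 49.2% had a log2 fold change above 0. Of 19 genes that switch integrins on or off 17 were tested, and 0 were called by edgeR or DESeq2, with 1 lower at an unadjusted p under 0.05 by edgeR. Their median log2 fold change was 0.10, with 13 above 0, but with scaling by library size alone it was -0.01, with 6 of 17 above 0. Flna, the filamin that competes with talin for β chain tails, and Rap1b, the small GTPase that recruits talin, had the highest TPM. Flna measured 4001 ± 329 CPM in Ly6C-high cells, against 3210 ± 631 CPM in Ly6C-low cells (log2 fold change 0.32, standard error 0.15, edgeR adjusted p 0.351), and the log2 fold change was 0.17 without Ly6C-low replicate 3. Rap1b measured 1041 ± 53.7 CPM in Ly6C-high cells, against 972 ± 64.7 CPM in Ly6C-low cells. Dok1 and Sharpin, which both hold integrins inactive, had log2 fold changes of -0.42 and -0.20 with standard errors of 0.12 and 0.09 (edgeR adjusted p 0.214 and 0.372), and the groups did not overlap in either gene.

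Genes of outside-in signalling were all tested, 21 of 21, and 0 were called by edgeR or DESeq2, with 5 higher at an unadjusted p under 0.05 by edgeR, where 6.92% of all genes were. The median log2 fold change was 0.11, with 18 above 0 (49.2% of all genes), but 0.02 and 12 of 21 without Ly6C-low replicate 3, and 11 of 21 with scaling by library size alone. Lims1 (PINCH-1, of the complex with integrin-linked kinase) measured 324 ± 33.2 CPM in Ly6C-high cells, against 233 ± 49.8 CPM in Ly6C-low cells, a log2 fold change of 0.48 (standard error 0.15, edgeR adjusted p 0.235). Vcl (vinculin, of adhesion sites) measured 205 ± 15.5 CPM in Ly6C-high cells, against 152 ± 32.3 CPM in Ly6C-low cells, a log2 fold change of 0.44 (standard error 0.14, edgeR adjusted p 0.239), or 0.29 without Ly6C-low replicate 3. Lyn, a Src-family kinase, measured 997 ± 16.3 CPM in Ly6C-high cells, against 842 ± 62.3 CPM in Ly6C-low cells (log2 fold change 0.24, standard error 0.10, edgeR adjusted p 0.300). The adaptors Tyrobp (DAP12) and Fcer1g, through which β2 integrins reach Syk, had the highest TPM of the list and log2 fold changes of -0.01 and 0.02, with standard errors of 0.09 and 0.10, or -0.03 and -0.05 without Ly6C-low replicate 3.

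Of 18 ligand genes 12 were tested, and 0 were called by edgeR or DESeq2, with 1 higher and 2 lower at an unadjusted p under 0.05 by edgeR (6.92% and 7.33% of all genes). Their median log2 fold change was 0.16, with 7 above 0, but 0.03 without Ly6C-low replicate 3 and -0.10 with length-scaled TPM. Icam1, the counter-receptor of LFA-1 and Mac-1, measured 9.49 ± 1.14 CPM in Ly6C-high cells, against 13.5 ± 2.56 CPM in Ly6C-low cells, without overlap (log2 fold change -0.51, standard error 0.16, edgeR adjusted p 0.221). C3, the source of iC3b, had the highest TPM, and measured 1003 ± 97.1 CPM in Ly6C-high cells, against 804 ± 285 CPM in Ly6C-low cells. Its log2 fold change was 0.32 (standard error 0.27), and 0.05 without Ly6C-low replicate 3. Tgfb1, whose latent form αv integrins bind, had a log2 fold change of -0.19 (standard error 0.09, edgeR adjusted p 0.348). Thy1, a surface protein that binds Mac-1, had one of 0.83 (standard error 0.32, edgeR adjusted p 0.292) at 2.79 ± 1.05 CPM in Ly6C-high cells, against 1.58 ± 0.421 CPM in Ly6C-low cells.

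All 10 membrane partners were tested, and 0 were called by edgeR or DESeq2, with 2 higher at an unadjusted p under 0.05 by edgeR (6.92% of all genes). Their median log2 fold change was 0.05, with 5 above 0, but -0.05 with scaling by library size alone. Cd177, a neutrophil surface protein that associates with Mac-1, measured 3099 ± 288 CPM in Ly6C-high cells, against 2436 ± 507 CPM in Ly6C-low cells (log2 fold change 0.35, standard error 0.15, edgeR adjusted p 0.338). The tetraspanin Cd9 measured 349 ± 16.5 CPM in Ly6C-high cells, against 282 ± 42.9 CPM in Ly6C-low cells, without overlap (log2 fold change 0.31, standard error 0.11, edgeR adjusted p 0.281). Without Ly6C-low replicate 3 the log2 fold changes of Cd177 and Cd9 were both 0.19. Plaur, the urokinase receptor that binds Mac-1, had a log2 fold change of 0.27 (standard error 0.13, edgeR adjusted p 0.385), and Fcgr3, an Fc receptor, one of 0.17 (standard error 0.10), or 0.10 without Ly6C-low replicate 3.

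**Figure D5:**
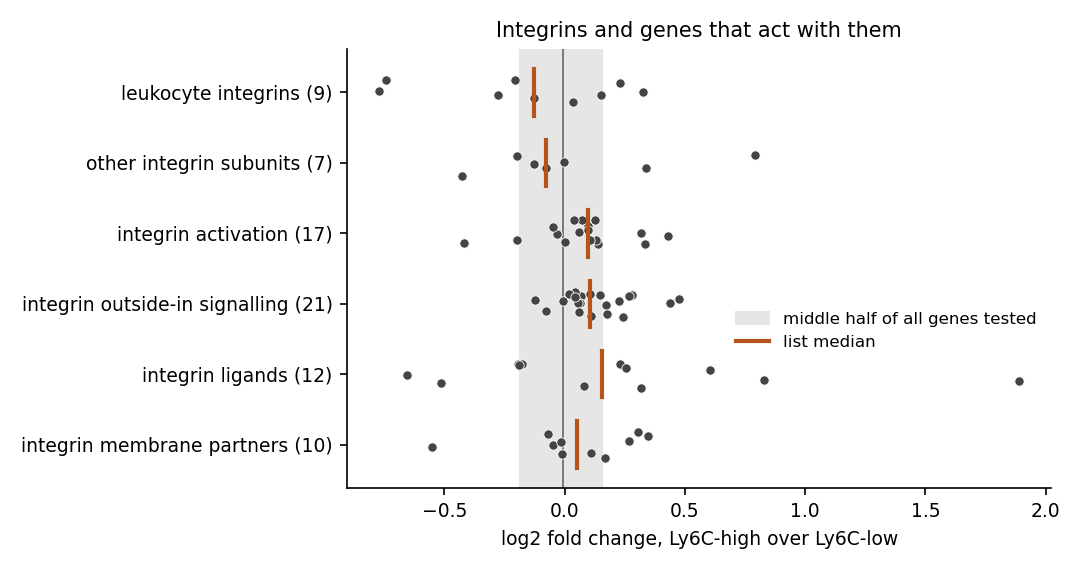
Log2 fold change, Ly6C-high over Ly6C-low, of each tested gene (points, spread vertically for sight only) in 6 lists, with the list median (brown bar), the number tested in brackets, the median of all 11413 genes (line) and the range from their lower quartile of -0.18 to their upper quartile of 0.15 (grey). The 6 medians lie between -0.13 and 0.16.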

How the data were processed

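For each of the 6 samples the authors deposited a kallisto table with estimated counts, TPM and effective length per transcript, per the file headers. Per the submitters' processing notes the build was GRCm39. For kallisto, the version, index and strand setting are not stated in the labels or files. Per the series' design text, strand-marked libraries were made from poly(A) RNA (100 ng of total RNA), amplified in 13 PCR cycles and sequenced for 75 cycles from one end. PCR copies were not marked, so counts are not independent molecules.

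Transcripts were assigned to 35905 genes with the GENCODE M21 annotation (GRCm38), which matched 99.08% of them; the 54 transcripts of the integrin genes had the same lengths in both. Estimated counts were summed per gene and rounded. edgeR 4.0.16 in R 4.3.3 fitted group alone by quasi-likelihood, with robust dispersions, after filterByExpr and TMM scaling. P-values were adjusted by Benjamini-Hochberg over the 11413 genes kept, with a threshold of 0.05. CPM are TMM-scaled and TPM are as deposited, summed per gene. Fold changes put Ly6C-high over Ly6C-low. Alternatives were size factors as in DESeq2, a replicate block, library size alone, no filter, the DESeq2 1.42.0 Wald test, length-scaled TPM and each library left out. Joint counts of Itgam and Gm49368 were added after the data were examined.

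The integrin genes and all gene lists were chosen with earlier results of these data known. Named were all 10 integrin genes, other subunits averaging 1 CPM or more, and from each further list the 3 smallest p and the 2 highest TPM. For Itgam and Itgax the 5 closest profiles (pseudocount 0.1 CPM, means of at least 5 CPM, no predicted genes) were named. Marker genes and members of the pair with shared exons were named outside this rule, after their values were seen. Between libraries of a group the chi-square per gene was between 13.04 and 43.5, so none was a copy of another. The test was checked on simulated data.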

Additional observations from a re-analysis of the deposited data

How the results depend on the processing

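The number of genes past the threshold, 4 with all 6 libraries, was 61 with the replicate block, 8 with library size alone, 439 with no filter, 110 with the DESeq2 Wald test and 2 with length-scaled TPM, and between 2 and 21 with 1 library left out. The highest, 21, came without Ly6C-low replicate 3, and the count was 2 without replicate 2 of either group or replicate 3 of Ly6C-high. Of the integrin genes 0 passed, and 1, Itgax, did with the replicate block, no filter or the DESeq2 Wald test. In that order, these settings called 61 of 11413, 439 of 20594 and 110 of 11413 genes tested. With no filter all 10 integrin genes were tested. Of the signalling genes 1 (Lims1) passed with the replicate block and 2 (Lims1 and Vcl) with no filter, and of the ligand genes 1 (Icam1) with no filter. The cause was not tested. The replicate block rests on numbers alone. Deviations of same-numbered libraries had correlations of 0.24, -0.04 and 0.24 for replicates 1, 2 and 3. Those of differently numbered libraries lay between -0.31 and 0.11. With so few libraries these values cannot settle whether the numbers pair the samples, and the main fit used no pairing.

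Over 12 alternatives each, Itgam, Itgb2, Itgax, Itga4, Itgb1 and Itgb7 kept the sign of their log2 fold change, while Itgal kept it in 10, Itgav in 11 and Itgb2l in 11. With 1 library left out the values were between 0.23 and 0.40 for Itgam, -0.86 and -0.57 for Itgax, 0.13 and 0.31 for Itgb2, and -1.11 and -0.40 for Itgb7. Library size alone moved the median of all genes to -0.11. The log2 difference in the CD11b to CD11c ratio was 1.06 with counts per kilobase, 1.11 with the most abundant transcript alone and between 0.56 and 1.23 with 1 library left out. The difference in the CD11b share was between 3.11 and 5.26 percentage points over its 8 alternatives. Depth limits Itgad and Itgb7.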

Other observations

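A few further genes of the lists were picked out after their values were seen. Rap1gap2, which inactivates Rap1, measured 12.5, 11.3 and 12.9 CPM in Ly6C-high cells, against 2.35, 7.23 and 19.6 CPM in Ly6C-low cells. Cdh1, E-cadherin and the counter-receptor of the αE integrin, measured 15.6, 7.57 and 7.88 CPM in Ly6C-high cells, against 20.6, 9.11 and 19.0 CPM in Ly6C-low cells, while the keratin genes Krt8, Krt18 and Krt14 had 0 in each library and Itgae averaged 0.431 CPM. Fn1, fibronectin, measured 5.01 CPM in Ly6C-high replicate 2 and at most 1.11 CPM in the other 5 libraries. Cd3d had between 37.4 and 59.0 CPM in Ly6C-high cells, against between 31.5 and 43.1 CPM in Ly6C-low cells, where Cd3e had less than 1 CPM in each. B cell markers summed to between 3.82 and 6.51 CPM in Ly6C-high cells, against between 3.44 and 5.55 CPM in Ly6C-low cells, T and NK cell markers to between 41.5 and 65.3 CPM in Ly6C-high cells, against between 34.4 and 47.4 CPM in Ly6C-low cells, and erythroid markers to between 247 and 903 CPM in Ly6C-high cells, against between 585 and 886 CPM in Ly6C-low cells.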
